A study of Mus musculus with 3 samples.

Results

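The heat shock and small chaperone genes are 10 genes, of 54232 gene identifiers in the files, that encode helpers of protein folding. They were chosen by name and fall into 7 cytosolic members (Hspa1a, Hspa1b, Hspa8, Hsp90aa1, Hsph1, Dnajb1 and the co-chaperone Bag3) and 3 small chaperones (Hspb1, Hspb8 and Cryab). RNA-seq counts were available for cortical neurons of wildtype CD1 mice grown in culture, with 1 library for each of 3 groups. In the IKVAV PA library the neurons grew with a peptide amphiphile, a self-assembling peptide, that carries the laminin sequence IKVAV. In the IKVAV PA + PEDOT-S library a further component was present, called PS2 in the title and PEDOT-S_OH in the library name and taken here to be the conducting polymer PEDOT-S. The PDL library is the control, although the treatment field of its labels names the peptide amphiphile as it does for the other libraries. The sources used here give neither the age of the cultures nor the number of animals behind a library. The series asks whether conductive and bioactive scaffolds promote neuronal maturation, and the chaperones are read here across its 3 culture conditions.

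Chaperones bind unfolded protein and keep it from aggregating. In the cytosol, HSP70 proteins bind and release clients in cycles that J-domain proteins start and nucleotide exchange factors end, and HSP90 completes the folding of many kinases and receptors. Small heat shock proteins hold clients without using ATP and are prominent in glia, muscle and other contractile cells, while the HSP70 and HSP90 proteins are abundant in neurons. Heat shock factor 1, encoded by Hsf1, induces many of these genes under proteotoxic stress through heat shock elements, which are alternating repeats of the letters GAA and TTC.

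The sequences upstream of 5 members are shown for the heat-inducible HSP70 pair, whose counts cannot be cleanly divided, and for Hspb1, Hspb8 and Bag3, which had large differences between libraries. Each is the 250 bases before the RefSeq start site on GRCm38.p6, written 5′ to 3′ on the strand of the gene, with capitals marking every match to an 8-letter stretch of a heat shock element, GAANNTTC or TTCNNGAA, each of which reads the same on both strands. The windows are chr17:34972157-34972406 (minus strand) for Hspa1a, chr17:34959239-34959488 (minus) for Hspa1b, chr5:135887669-135887918 (plus) for Hspb1, chr5:116422865-116423114 (minus) for Hspb8 and chr7:128523333-128523582 (plus) for Bag3.
Hspa1a: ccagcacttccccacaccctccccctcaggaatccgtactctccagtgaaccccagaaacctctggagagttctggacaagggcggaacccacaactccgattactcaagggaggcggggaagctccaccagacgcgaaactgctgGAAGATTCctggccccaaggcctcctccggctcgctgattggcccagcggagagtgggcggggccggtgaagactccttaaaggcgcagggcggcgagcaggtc
Hspa1b: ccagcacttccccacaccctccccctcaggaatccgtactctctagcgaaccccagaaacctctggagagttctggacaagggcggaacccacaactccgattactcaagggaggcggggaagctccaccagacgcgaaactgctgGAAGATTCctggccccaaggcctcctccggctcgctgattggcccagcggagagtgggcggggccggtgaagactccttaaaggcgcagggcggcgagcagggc
Hspb1: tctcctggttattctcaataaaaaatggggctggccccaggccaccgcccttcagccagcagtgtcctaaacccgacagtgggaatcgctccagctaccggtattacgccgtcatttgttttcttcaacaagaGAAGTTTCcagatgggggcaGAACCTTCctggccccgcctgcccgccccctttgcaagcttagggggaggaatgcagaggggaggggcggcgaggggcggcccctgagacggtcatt
Hspb8: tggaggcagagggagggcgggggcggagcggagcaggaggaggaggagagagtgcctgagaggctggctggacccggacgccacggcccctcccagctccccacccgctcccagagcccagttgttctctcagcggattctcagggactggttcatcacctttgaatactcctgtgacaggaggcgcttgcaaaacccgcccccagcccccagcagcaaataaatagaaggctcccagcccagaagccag
Bag3: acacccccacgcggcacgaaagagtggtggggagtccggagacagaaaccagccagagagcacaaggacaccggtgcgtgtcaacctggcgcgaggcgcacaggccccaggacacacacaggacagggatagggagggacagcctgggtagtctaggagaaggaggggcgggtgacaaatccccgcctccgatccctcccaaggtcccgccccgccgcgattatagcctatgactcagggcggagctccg
The Hspa1a and Hspa1b windows have the same base at 247 of 250 positions, and each holds 1 match, at positions -104 to -97 from the start site. The Hspb1 window holds 2 matches, while the windows of Hspb8 and Bag3 hold none. Hsph1 had 1 match in each of its 2 overlapping windows and Dnajb1 none, so 4 of the 7 members with a window held at least 1 match. Hspa1a and Hspa1b, near-copies with the same match, are 2 of these 4. Of 32851 such windows of all genes, 12.8% held a match. That share is per window, whereas the 7 members, with 9 windows, are counted per gene. The longer form GAANNTTCNNGAA, searched on both strands and overlapping the short forms, was in no member's window and in 0.466% of all windows. Hspa8, Hsp90aa1 and Cryab had no window in the table used. A match is a description of letters, and the absence of one says nothing about binding of heat shock factors.

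The libraries held 124425958 counts (IKVAV PA), 79057998 (IKVAV PA + PEDOT-S) and 78993105 (PDL control), and levels are given as CPM, the count scaled to library size. With 1 library per group no test between groups was possible. A gene was counted as higher or lower when the 95% counting interval of its ratio lay wholly beyond 1.5-fold, and all intervals cover counting error only, not differences between cultures. Of the 10 members, 9 reached 1 CPM in at least 1 library and are among the 13884 genes compared on that rule. Hspb1 did not, and its values are given without a call.

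The large cytosolic chaperones lay close together in the 3 libraries, whereas Bag3 and the small chaperones Hspb8 and Cryab were lower in both scaffold libraries than in the PDL control library. Bag3 was 3.32-fold lower in IKVAV PA and 3.36-fold lower in IKVAV PA + PEDOT-S, Hspb8 was 4.05-fold and 7.09-fold lower, and Cryab was 1.98-fold and 2.53-fold lower. All 3 were weakly expressed. The 6 other cytosolic members differed from the control by ratios between 0.875 and 1.10. The plot of levels by library shows these groups side by side.

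**Figure D1:**
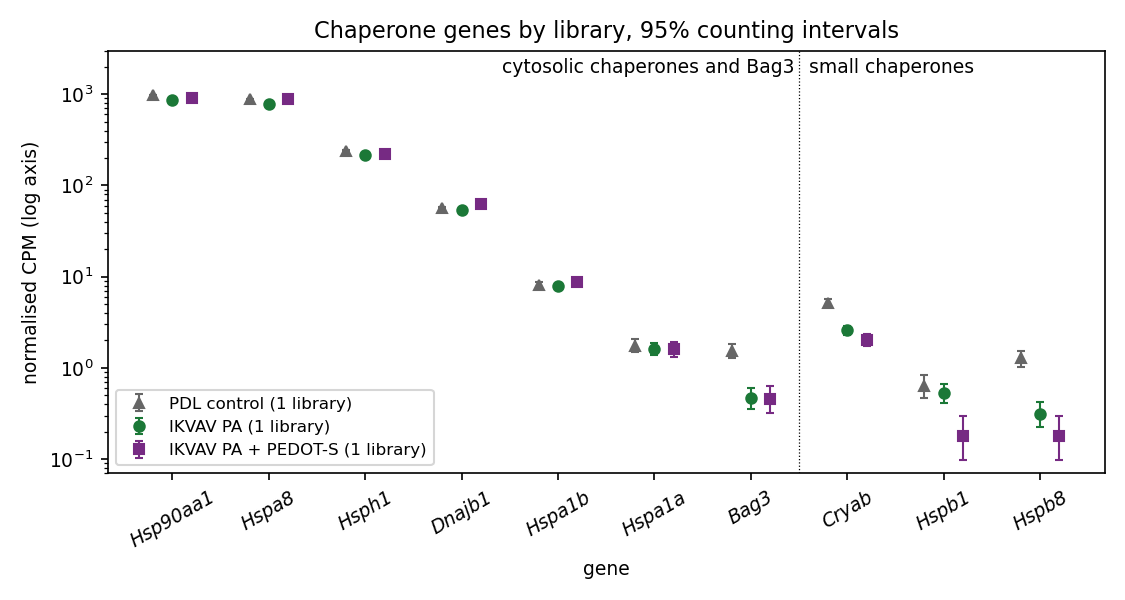
Levels of the 10 chaperone genes in normalised CPM (log axis) in each of the 3 libraries, 1 point per library, with bars for the 95% counting interval. The PDL control lies above both scaffold libraries for Bag3, Cryab and Hspb8, and the points of Hsp90aa1, Hspa8, Hsph1, Dnajb1, Hspa1b and Hspa1a lie close together.

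Hsp90aa1, the alpha form of cytosolic HSP90, stood at 981 CPM in the PDL control, 859 in IKVAV PA and 919 in IKVAV PA + PEDOT-S. Hspa8, the constitutive HSP70 that also strips clathrin from vesicles, stood at 886, 780 and 884 CPM in the same order. Hsph1, an HSP110 protein that recharges HSP70 with nucleotide, stood at 239, 215 and 224 CPM. In each of these genes the IKVAV PA library was the lowest in value and the PDL control the highest. For Hspa8 the control and IKVAV PA + PEDOT-S were level within counting error, with a ratio of 0.998 (0.987 to 1.01). Counting error is small at this depth, so that the Hsp90aa1 ratio of IKVAV PA to control of 0.875 has an interval of 0.867 to 0.883, but the spread between cultures is unknown and ratios of this size cannot be told from it. Dnajb1, the J-domain partner of inducible HSP70, stood at 56.2 CPM in the control, 53.5 in IKVAV PA and 61.9 in IKVAV PA + PEDOT-S, and here the PEDOT-S library was the highest.

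Hspa1b, one of the 2 heat-inducible HSP70 genes, stood at 8.19 CPM (652 counts) in the control, 7.88 (982 counts) in IKVAV PA and 8.82 (690 counts) in IKVAV PA + PEDOT-S. Hspa1a, its near-identical neighbour, stood at 1.76, 1.61 and 1.60 CPM. Neither was counted as different in any comparison. Of all 50-base windows of the Hspa1a transcripts, 66.3% also occur in transcripts of other genes, and 58.8% occur in Hspa1b, so how reads are divided between these genes depends on the counting. Exons of Hspa1a (chr17:34969190-34972156, GRCm38) also overlap those of Gm20481 over 19.0% of their bases. Summed over both genes the level was 9.94 CPM in the control, 9.49 in IKVAV PA and 10.4 in IKVAV PA + PEDOT-S, so the classical heat-inducible transcripts were present at a similar level in all 3 libraries.

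Other cytosolic members also have near-identical copies. For Hsp90aa1, 47.5% of the 50-base windows occur in other annotated transcripts, most of them in Gm12346, and for Hspa8 the share is 39.4%, most of them in Gm15459. If reads that fit several places were dropped, the levels of these genes are too low. Hsph1, Bag3 and Hspb8 share no such window with another gene, and Dnajb1 shares 0.412%.

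Bag3, which couples HSP70 to small heat shock proteins and to autophagy, had 123 counts in the control, 58 in IKVAV PA and 36 in IKVAV PA + PEDOT-S, or 1.54, 0.465 and 0.460 CPM. It was lower in IKVAV PA by 3.32-fold (95% counting interval 2.41 to 4.62) and in IKVAV PA + PEDOT-S by 3.36-fold (2.30 to 5.01). The 2 scaffold libraries had nearly the same level, with a ratio of 0.989 (0.634 to 1.52). The gene spans chr7:128523616-128546981 on GRCm38 and shares no exonic base with another gene.

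Hspb8, the small chaperone that works in a complex with Bag3, had 101 counts in the control, 39 in IKVAV PA and 14 in IKVAV PA + PEDOT-S, or 1.27, 0.313 and 0.179 CPM. It was 4.05-fold lower in IKVAV PA (interval 2.78 to 6.03) and 7.09-fold lower in IKVAV PA + PEDOT-S (4.03 to 13.4). Between the scaffolds the ratio was 0.572 (0.287 to 1.08), whose interval includes no difference. The gene lies at chr5:116408491-116422864. Bag3 and Hspb8 reached 1 CPM in the control library alone, so passing the expression filter already required a higher value there.

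Cryab, alpha-B crystallin, a small chaperone of lens, muscle and glia, had 409 counts in the control, 323 in IKVAV PA and 159 in IKVAV PA + PEDOT-S, or 5.13, 2.59 and 2.03 CPM. It exceeded 1 CPM in every library. It was 1.98-fold lower in IKVAV PA (interval 1.71 to 2.30) and 2.53-fold lower in IKVAV PA + PEDOT-S (2.10 to 3.05), and between the scaffolds the ratio was 0.784 (0.644 to 0.951). At chr9:50751325-50756636 it overlaps the divergent small heat shock gene Hspb2 over 17.0% of its exonic bases, and Hspb2 had 7 counts in the control and 0 in both scaffold libraries.

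Hspb1, the small chaperone known in mouse as HSP25, which also guards actin filaments, had its difference mainly in the PEDOT-S library. It had 50 counts in the control, 66 in IKVAV PA and 14 in IKVAV PA + PEDOT-S, or 0.628, 0.529 and 0.179 CPM. The ratio of IKVAV PA to control was 0.844 with an interval of 0.575 to 1.24, whereas IKVAV PA + PEDOT-S was 3.51-fold lower than the control (1.91 to 6.87) and 2.96-fold lower than IKVAV PA (1.65 to 5.71). It lies at chr5:135887919-135889563, and 50.1% of its 50-base windows occur in other transcripts, mainly the pseudogene Hsp25-ps1.

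**Figure D2:**
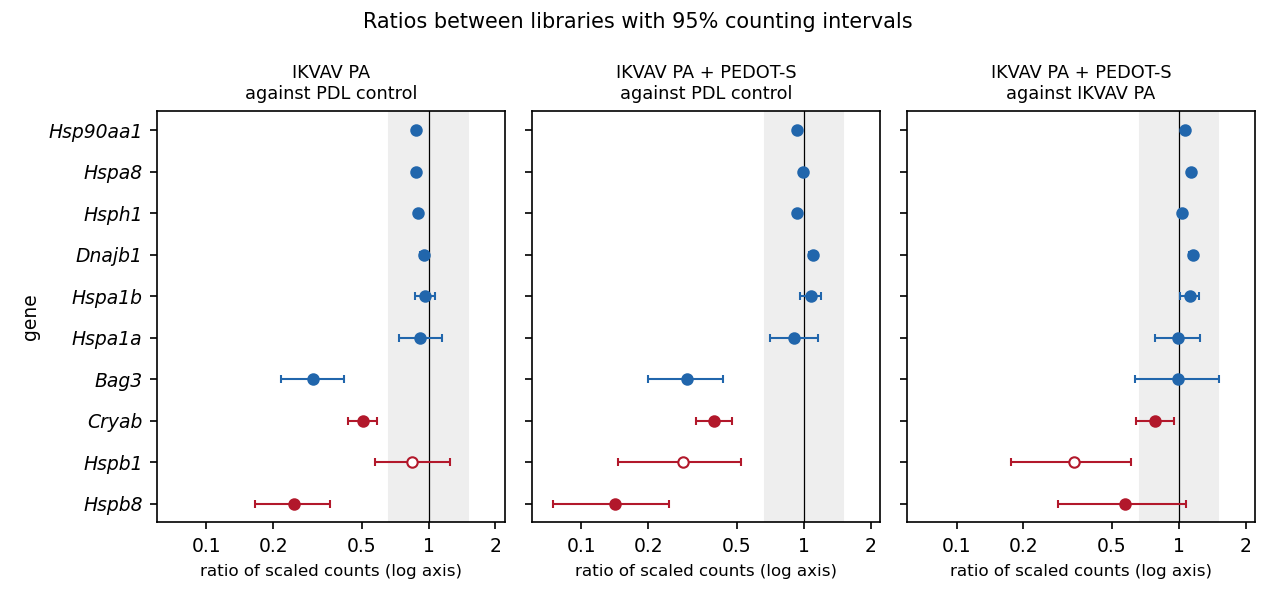
Ratios of scaled counts (log axis) for each chaperone gene in the 3 comparisons, with bars for the 95% counting interval and grey for the range within 1.5-fold. Red marks small chaperones and blue cytosolic members, and the open circle is Hspb1, which was below the expression filter. Bag3, Cryab and Hspb8 lie left of the grey range against the PDL control in both scaffold libraries.

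Per kilobase of exon, the 4 highest genes kept the same order in the 3 libraries, while the order below them differed. In the control library Hsp90aa1 (249.5 CPM per kilobase) and Hspa8 (206) led, followed by Hsph1 (33.0), Dnajb1 (17.5), Cryab (3.47) and Hspa1b (2.92). Hspb8 (0.650), Hspb1 (0.609), Bag3 (0.603) and Hspa1a (0.592) came last in the control, and differed little from each other there. In IKVAV PA + PEDOT-S the lowest were Bag3 (0.180), Hspb1 (0.174) and Hspb8 (0.0917), below Hspa1a (0.538). Cryab stood above Hspa1b in the control alone. It was at 1.75 against 2.81 for Hspa1b in IKVAV PA, and 1.37 against 3.15 in IKVAV PA + PEDOT-S.

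Against the whole transcriptome, 3 of the 9 members compared were lower and none higher in IKVAV PA than in the control, beside 3.42% of all genes compared that were lower and 0.540% that were higher. In IKVAV PA + PEDOT-S against the control 3 of 9 were again lower and none higher, beside 3.76% lower and 0.447% higher among all genes. Between the scaffolds none of the 9 was counted, beside 2.01% lower and 0.331% higher in the PEDOT-S library. Low levels raise this background. Among genes with a mean under 5 CPM, a split chosen after seeing the data, 10.3% were lower in IKVAV PA and 11.7% in IKVAV PA + PEDOT-S, against 1.33% in each for genes at 5 CPM or more. Between the scaffolds these shares were 6.32% and 0.696%. All 3 lower members are in the first group, with Hspa1a as the fourth, and the 5 members at 5 CPM or more were all within the bound. Bag3 and Hspb8 passed the filter through the control library alone, which already favoured a lower call. The 3 of 9 is therefore not read as an excess over the shares of all genes. Over all 10 members the median log2 ratio (with a prior count of 2) was -0.19 in IKVAV PA and -0.12 in IKVAV PA + PEDOT-S against the control, and the median of all genes compared was 0.00 in both. Over the 3 small chaperones it was -0.98 and -1.70, and over the 7 cytosolic members -0.15 and -0.09. The -1.70 is the value of Hspb1, which was below the filter. Over the 2 small chaperones that passed, the medians were -1.46 and -2.01. Both comparisons use the same control library, so they do not support each other independently.

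**Figure D3:**
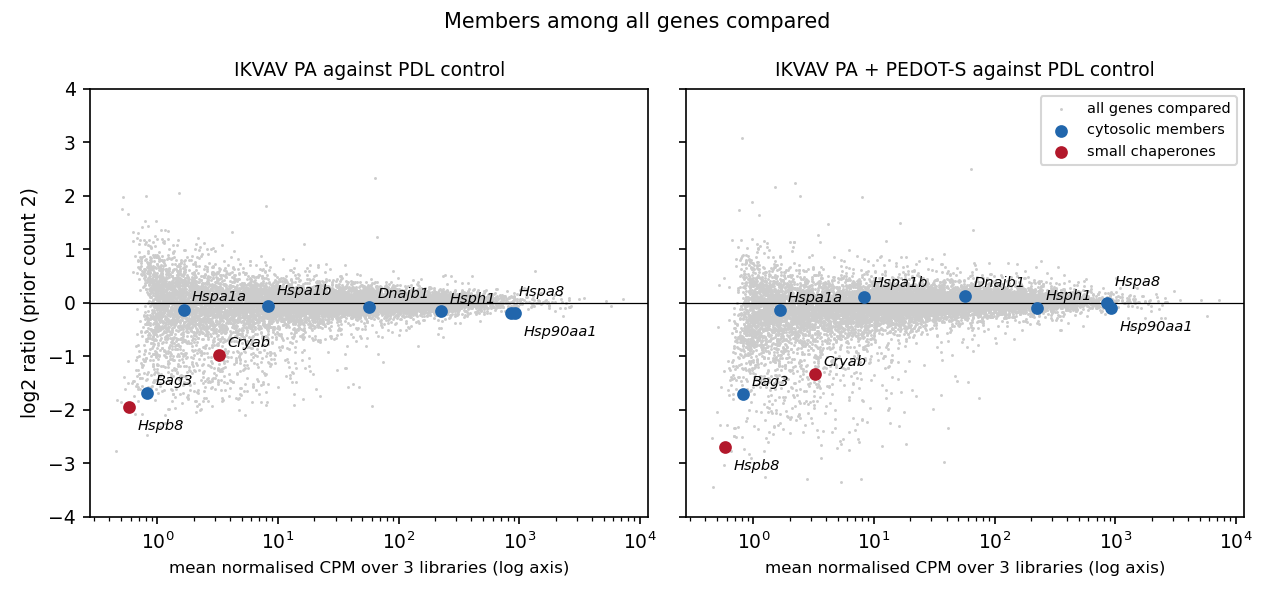
Log2 ratio to the PDL control (prior count 2) against mean normalised CPM over 3 libraries (log axis) for all 13884 genes compared (grey), the cytosolic members (blue) and the small chaperones that passed the filter (red). Bag3, Hspb8 and Cryab sit at low expression with negative ratios, while the other members sit near 0.

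Within each library, the 3 small chaperones made up a small share of the members' counts, a value that needs no scaling between libraries. They held 560 of 173713 counts in the control, or 0.322% (exact Clopper-Pearson 95% interval 0.296 to 0.350), 428 of 239418 in IKVAV PA, or 0.179% (0.162 to 0.197), and 187 of 164510 in IKVAV PA + PEDOT-S, or 0.114% (0.0980 to 0.131). These intervals do not overlap, but they cover counting error only, not differences between cultures. Cryab supplied most of the small chaperone counts in every library, so the share largely repeats its difference. The summed level of the small chaperones was 7.03, 3.43 and 2.39 CPM in the same order, while that of the cytosolic members was 2174, 1917 and 2100 CPM.

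Of the listed genes compared in the rest of the chaperone network, Flnc alone was counted as different from the control. Some listed genes below the expression filter had large ratios. The lists leave out Serpinh1, a collagen chaperone, which stood at 32.5 CPM in the control, 9.33 in IKVAV PA and 6.61 in IKVAV PA + PEDOT-S. Of the 7 other small heat shock genes, 2 passed the filter and neither was counted, Hspb6, a small chaperone of muscle (4.02 CPM in the control, 3.17 in IKVAV PA and 3.23 in IKVAV PA + PEDOT-S), and Hspb3 (1.64, 1.48 and 1.75 CPM). Below the filter, Hspb7, a small heat shock gene of heart and muscle, stood at 0.414 CPM in the control, 0.369 in IKVAV PA and 0.0383 in IKVAV PA + PEDOT-S, from 33, 46 and 3 counts. Hspb9 and Cryaa had at most 12 counts in a library, and Odf1 had 0 in all 3. Among heat shock factors and their regulators 3 of 6 passed, with none counted. Hsf1 stood at 28.8, 29.2 and 25.8 CPM in the control, IKVAV PA and IKVAV PA + PEDOT-S, Hsf2 at 48.7, 50.7 and 52.4, and Hsbp1, which binds heat shock factor 1, at 233, 218 and 210. Hsf4, below the filter, stood at 0.402, 0.369 and 0.128 CPM, from 32, 46 and 10 counts. The RNA level of a heat shock factor does not show its activity.

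None of the 9 other cytosolic HSP70, HSP110 and HSP90 genes was counted in any comparison, with medians of -0.11 in IKVAV PA and 0.01 in IKVAV PA + PEDOT-S against the control. Hsp90ab1, the constitutive HSP90, had log2 ratios of -0.15 and -0.05, and Hspa4, an HSP110 relative, -0.06 and 0.05. Hspa12b had the highest ratio of the list, 0.86 in IKVAV PA (161 counts against 56 in the control), and 0.21 in IKVAV PA + PEDOT-S. None of 11 J-domain partners was counted (medians 0.00 and 0.05), among them Dnajc5, a chaperone of synaptic vesicles, at -0.00 and 0.01, and Dnaja1 at -0.11 and -0.09. None of 18 HSP90 and HSP70 co-chaperones was counted (medians -0.03 and 0.06). The other genes of the Bag family on that list, Bag1, Bag2, Bag4, Bag5 and Bag6, had log2 ratios between -0.03 and 0.19, so Bag3 stood apart from them in value. Bag3 was also far less expressed, at 1.54 CPM in the control against 11.0 for Bag2, the lowest of them. Lower calls were more frequent at low levels, so the contrast is one of level as well as of gene.

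The partners of Bag3 in chaperone-assisted autophagy, the pathway in which Bag3, Hspb8 and HSP70 deliver damaged filamin for degradation, included 1 of 7 genes lower in both scaffold libraries and none higher. It was Flnc, the muscle filamin, at 5.67 CPM in the control, 2.40 in IKVAV PA and 1.43 in IKVAV PA + PEDOT-S (log2 ratios -1.23 and -1.97). Of all genes compared, 3.42% and 3.76% were lower in these libraries. Flnc had a mean under 5 CPM, where 10.3% and 11.7% were lower, so the 1 of 7 is not read as an excess. Flna, the widespread filamin, stood at 380, 422 and 266 CPM and was counted as lower between the scaffolds and in neither comparison with the control (log2 ratio -0.67). Sqstm1, the autophagy receptor p62 (312, 300 and 308 CPM), and Map1lc3b, which marks autophagosomes (157, 168 and 177 CPM), lay within the bound.

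The listed folding machines outside these families were not counted either. All 14 chaperonin and prefoldin genes had a negative log2 ratio in IKVAV PA against the control, none below -0.18 (median -0.10), and their median in IKVAV PA + PEDOT-S was 0.06. Cct2, a chaperonin subunit, stood at 313 CPM in the control, 294 in IKVAV PA and 320 in IKVAV PA + PEDOT-S. The 8 mitochondrial chaperones had medians of -0.09 and 0.00, with Hspa9, the mitochondrial HSP70, at -0.15 and 0.05. The 11 chaperones of the endoplasmic reticulum had negative ratios in both libraries (medians -0.22 and -0.22), such as Hspa5, the HSP70 known as BiP, at -0.27 and -0.24.

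**Figure D4:**
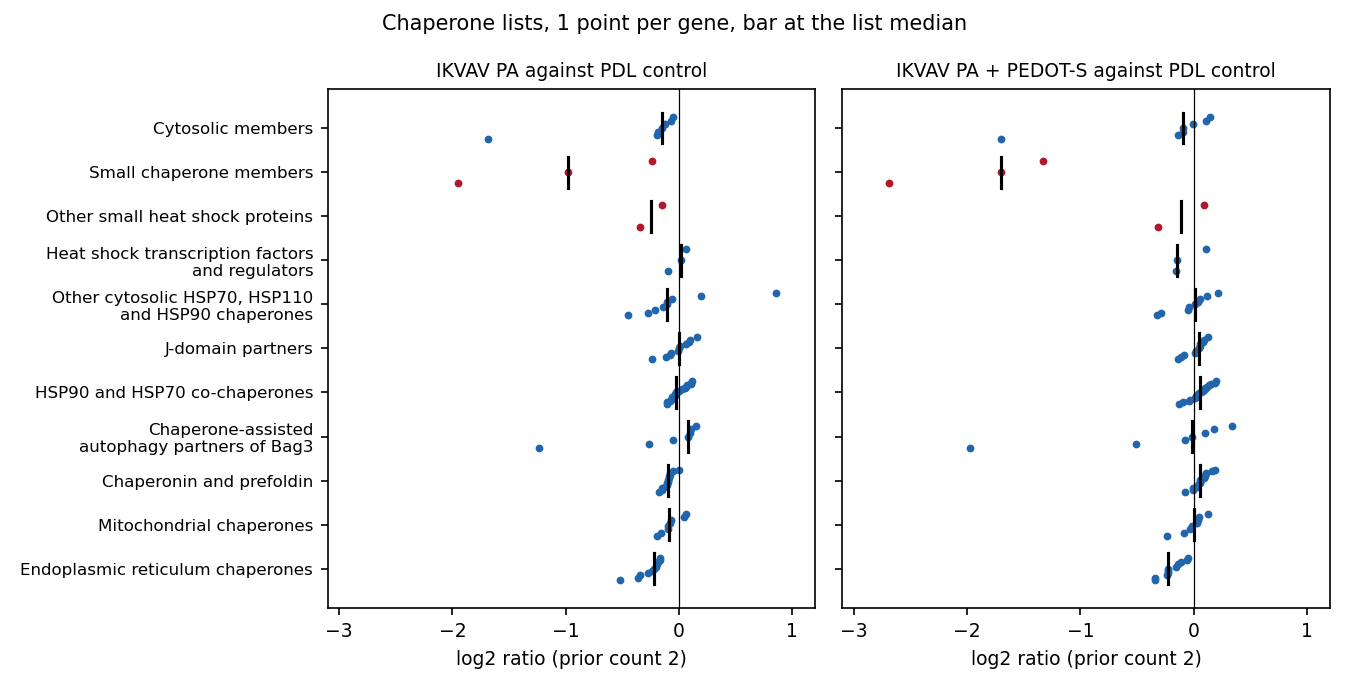
Log2 ratios to the PDL control (prior count 2) of the genes of 11 chaperone lists, 1 point per gene and a bar at the list median, with small chaperones in red. Hspb8, Cryab and, in the PEDOT-S library, Hspb1 lie far left of 0, as do Bag3 among the cytosolic members and Flnc among the autophagy partners. The medians of the other lists lie nearer to 0. All endoplasmic reticulum chaperones lie left of 0 in both panels, as do all chaperonin and prefoldin genes in IKVAV PA.

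Several marker lists of non-neuronal cells were lower in the scaffold libraries, as Bag3, Hspb8 and Cryab were. Among all genes compared, 3.42% were lower in IKVAV PA and 3.76% in IKVAV PA + PEDOT-S, and 0.540% and 0.447% were higher. Among genes with a mean under 5 CPM, 10.3% and 11.7% were lower. Over 11 markers of meningeal fibroblasts and mural cells the summed level was 281 CPM in the control, 174 in IKVAV PA and 103 in IKVAV PA + PEDOT-S, and of the 9 that passed the filter 5 and 9 were lower. Over 10 astrocyte markers the sum was 391, 232 and 244 CPM, with 7 and 5 of 9 lower, and 1 of 9, Gfap, higher in the PEDOT-S library. Slc1a2, the most abundant of them, supplied 169, 161 and 153 CPM of these sums and was not counted. Over 6 markers of oligodendrocyte precursors the sum was 62.1, 19.5 and 15.9 CPM, with 5 and 4 of 6 lower. Over 4 genes of cycling cells the sum was 94.4, 29.8 and 28.8 CPM, with 4 of 4 lower in both.

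Myelinating oligodendrocyte markers went the other way, at 58.2, 71.2 and 103 CPM over 8 genes, with 3 and 6 of 8 higher. The 6 endothelial markers summed to 6.40, 4.03 and 3.35 CPM, with 1 and 2 of 3 lower, and the 8 microglia markers to 2.44, 2.86 and 2.82 CPM. No marker of these lists was at 0 in any library. The 8 neuronal markers, which check the labelled cell type, summed to 6128, 6185 and 5987 CPM with none counted. The part of these cells in the lower levels of Bag3, Hspb8 and Cryab was not tested, and in bulk libraries fewer cells of a type and less RNA per cell cannot be told apart.

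**Figure D5:**
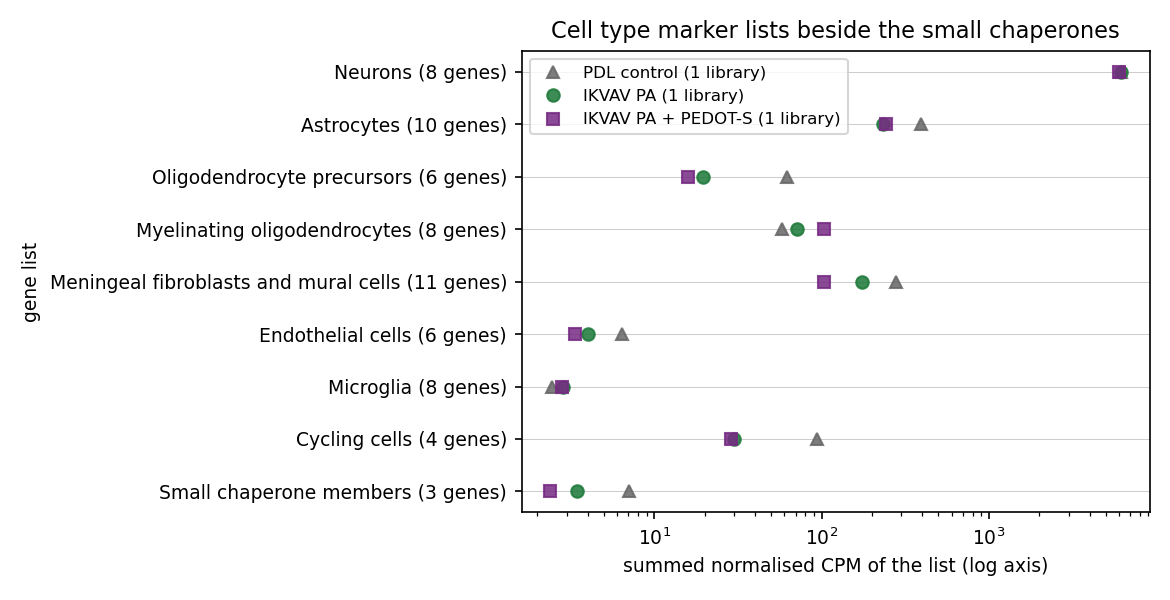
Summed normalised CPM (log axis) of 8 cell type marker lists and of the 3 small chaperones in each of the 3 libraries, 1 point per library. Fibroblast and mural, astrocyte, oligodendrocyte precursor and cycling cell lists and the small chaperones are highest in the control, neuronal markers nearly coincide, and myelinating oligodendrocyte markers are lowest in the control.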

How the data were processed

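The authors deposited whole-number counts per Ensembl gene, not normalised, for 3 libraries. The submitters' processing notes name mm10 and, in no stated order, HTSeq 2.0.2, DESeq2 1.14.1, STAR 2.7.5 and cutadapt 4.2. The sources used here do not state the annotation release, the strand setting or how reads with several matches were treated. Per the labels' protocols libraries came from a total RNA kit, whereas the molecule field reads polyA RNA. Groups came from the library names, and all 3 libraries are repeat 3. GENCODE M21 on GRCm38 gave symbols, coordinates and exon lengths for 54165 of 54232 identifiers. The 67 others held at most 0.0126% of a library's counts.

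Library sizes were scaled by TMM factors (edgeR 4.0.16, R 4.3.3), and genes with at least 1 CPM in at least 1 library were compared (13884). Ratios have exact (Clopper-Pearson) binomial intervals of the first count given the sum, and log2 ratios use a prior count of 2. The calculation was tested on simulated data. No p-value is given. The members and gene lists were chosen with earlier results of these data known. Named genes are the 10 members, up to 3 genes per list with the highest mean level, and members of a list past the bound. Egr1, Hspa12b, Serpinh1 beside the chaperone lists, genes below the filter and the other Bag genes were named after their values were seen. Alternatives were DESeq2 1.42.0 size factors, other scalings, filters, bounds, depths and prior counts.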

Additional observations from a re-analysis of the deposited data

How the results depend on the processing

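No paired analysis was possible because each group has 1 library, and no library could be left out. The same 3 members were lower than the PDL control in each scaffold library under several alternatives. These were DESeq2 size factors, total counts, protein-coding TMM factors and libraries thinned to the smallest total. A prior count of 0.5 gave the same calls by construction, because calls use the counting interval alone. Summing Hspa1a and Hspa1b left the counts of these 3 genes unchanged, so it could not alter their calls. A 2-fold bound lost 1 call, Cryab in IKVAV PA (log2 ratio -0.98). With at least 5 CPM required in at least 1 library, Bag3 and Hspb8 were not compared. In that setting 1 member, Cryab, was counted against the control in each scaffold. Cryab passed that filter through the control library alone, which already favoured a lower call. It stood at 5.13 CPM there, 2.59 in IKVAV PA and 2.03 in IKVAV PA + PEDOT-S. Without a filter Hspb1 was also lower in IKVAV PA + PEDOT-S, against the control (-1.70) and against IKVAV PA (-1.46, then 1 member counted). Over all genes, lower and higher counts in IKVAV PA against control were 475 and 75, but 846 and 484 without a filter, 227 and 18 at 5 CPM, and 219 and 9 with a 2-fold bound. In IKVAV PA + PEDOT-S against control they were 522 and 62, but 1074 and 247, 232 and 37, and 257 and 13. Between scaffolds they were 279 and 46, but 1122 and 230, 96 and 23, and 75 and 7. Fewer or more genes tested, or a wider bound, set these counts. Per kilobase of exon the small chaperones' share was 0.919% in the control, 0.537% in IKVAV PA and 0.331% in IKVAV PA + PEDOT-S, the same order as by counts. The low counts of Hspb8, Hspb1 and Bag3 limit the precision of their ratios.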

Other observations

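The genes whose pattern over the 3 libraries was nearest to a small chaperone were taken among protein-coding genes with a mean of at least 5 CPM, by the distance between their 2 log2 ratios to the PDL control. With 3 libraries many genes have similar patterns, so nearness is a description only. Nearest to Cryab (-0.98 in IKVAV PA and -1.33 in IKVAV PA + PEDOT-S) were Foxm1, a transcription factor of dividing cells (-0.98 and -1.36), the tubulin Tubb6 (-0.91 and -1.28) and Shroom3 (-0.98 and -1.45). Nearest to Hspb8 (-1.95 and -2.69) were Lgals1, galectin-1 (-1.58 and -2.75), Anxa2, annexin A2 (-1.70 and -2.37), and Serpinh1, the collagen chaperone HSP47 (-1.80 and -2.30). Nearest to Hspb1 (-0.24 and -1.70) were Phldb2 (-0.54 and -1.34), Rgs5, a pericyte gene (-0.28 and -1.23), and the collagen chain Col11a1 (-0.63 and -1.43). The distances were 0.028 to 0.121 for Cryab, 0.375 to 0.418 for Hspb8 and 0.469 to 0.478 for Hspb1. The genes named for Hspb8 and Hspb1 are thus looser neighbours than those of Cryab.

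Immediate early genes, which handling and stress also induce, were lower in value in the IKVAV PA library without passing the bound. Of 8 listed, all had negative log2 ratios in IKVAV PA against the control (median -0.29), 2 did in IKVAV PA + PEDOT-S (median 0.05), and none was counted in any comparison. Fos had the lowest ratio in IKVAV PA, at 49.9 CPM in the control, 32.3 in IKVAV PA and 42.4 in IKVAV PA + PEDOT-S (log2 ratios -0.63 and -0.24). Egr1 had log2 ratios of -0.44 and -0.48. Jun stood at 45.2 CPM in the control, 38.0 in IKVAV PA and 47.1 in IKVAV PA + PEDOT-S, and Dusp1 at 27.4, 21.8 and 27.9.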
